A study of Physcomitrium patens with 12 samples.

Results

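Mature antheridia and archegonia of the PpPINC mutant line pinC#29 of the moss Physcomitrium patens, strain Gransden, were compared to describe how the male and female organs differ in transcript levels when the plants carry this mutation. The comparison rests on 6 libraries of the 12 in the series, 3 of mutant antheridia and 3 of mutant archegonia, each made from 8 organs picked on day 18 of sporophyte induction. The remaining 6 libraries, 3 of wild type antheridia and 3 of wild type archegonia of the same strain and day, served as an outside measure of what each organ expresses. Collections were made on 3 occasions, and the labels do not tie libraries to occasions. All mutant material came from this 1 line, so the mutation and other features of the line cannot be told apart. The titles call the libraries biological replicates without naming separate cultures, and p-values therefore measure the spread between these libraries, which may be technical in part.

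Mosses bear their sex organs at the tips of the leafy shoots. An antheridium is a sac with a sterile jacket around a mass of spermatogenous cells, which turn into coiled, swimming sperm with flagella and compacted nuclei. An archegonium is a flask with a neck, a canal through which sperm swim, and a single egg in its belly. PIN proteins carry the hormone auxin out of plant cells, and auxin responses have been described in both organs of this moss. Gene identifiers of the count table could not be paired with names or products, since 0 of them occurred in the RefSeq gene table of assembly ASM5946719v1, which lists 27567 genes. Genes are therefore given by identifier and without a function, and the organs are characterised by how many genes differ, by how much, and in which libraries.

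Total counts were between 19038033 and 39833129 in the 6 mutant libraries. Genes with at least 1 count numbered 23977, 19088 and 20359 in mutant antheridia 1, 2 and 3, and 24240, 24802 and 19803 in mutant archegonia 1, 2 and 3. The candidate for the targeted gene, Pp3c10_24880, was recalled from the literature as the PpPINC locus and is not annotated by the files. It had 3, 2 and 0 counts in mutant archegonia and 0 counts in mutant antheridia 2 and 3, but 66 counts, or 2.87 CPM, in the library labelled mutant antheridia 1. Wild type antheridia had 66, 39 and 165 counts and wild type archegonia 94, 38 and 56 counts. If the candidate is right and the mutation takes away its transcript, the library labelled mutant antheridia 1 goes against its genotype label at this gene. Neither condition was tested. Some main results within the mutant, the counts of called genes among them, are given with and without that library. Others, such as median ratios and genes restricted to an organ, rest on all 6 mutant libraries. Of Pp3c12_11710, named below, it had 232 counts, and mutant antheridia 2 and 3 had 115 and 230. Wild type antheridia had 71101, 8547 and 41718. Of Pp3c20_16210, also named below, it had 104977 counts, and mutant antheridia 2 and 3 had 12335 and 9949. Wild type antheridia had 70170, 70115 and 87111. Whether the label is right was not tested. Levels are given as CPM, each library's counts divided by its total after TMM scaling, an edgeR method that sets the bulk of genes level between libraries.

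In its ranking of genes the library labelled mutant antheridia 1 was as close to one archegonium library as to its own group. Its Spearman correlation across 26838 genes, which are not independent replicates, was 0.824 and 0.849 with mutant antheridia 2 and 3, and 0.817, 0.857 and 0.745 with mutant archegonia 1, 2 and 3. Mutant antheridia 2 and 3 correlated with each other at 0.795. Mutant antheridia 3 was likewise as close to archegonium libraries as to mutant antheridia 2, at 0.798, 0.815 and 0.764 with mutant archegonia 1, 2 and 3. Mutant antheridia 2 correlated with these at 0.757, 0.766 and 0.728. The archegonia were closer to one another, at 0.864 to 0.961. For genes with a mean of at least 10 CPM in the organ, the median SD of log2(CPM + 1) between libraries was 0.74 in mutant antheridia, over 14485 genes, and 0.52 in mutant archegonia, over 13903 genes. The male organ was thus measured with the larger spread.

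Each mutant library carried the transcripts of the organ on its label. This was measured with gene lists drawn from the 6 wild type libraries, in which edgeR called 1654 of 21669 tested genes (7.63%), with 1202 (5.55%) on the antheridium side and 452 (2.09%) on the archegonium side. No mutant library entered that choice. The wild type antheridium list took 9.45%, 24.0% and 11.3% of the counts in mutant antheridia 1, 2 and 3, and 1.32%, 1.54% and 1.64% in mutant archegonia 1, 2 and 3. All 3 antheridium libraries lay above all 3 archegonium libraries, and mutant antheridia 2 stood far above the others. The means were 14.9% ± 7.90 in antheridia and 1.5% ± 0.164 in archegonia (SD, n = 3; two-sided exact permutation p = 0.1, the smallest that 3 libraries against 3 can give). The difference was 13.4 percentage points, 16.2 without the library labelled mutant antheridia 1 and 8.90 without mutant antheridia 2.

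The female list behaved in the mirrored way and with less spread. The wild type archegonium list took 6.44%, 5.58% and 4.89% of the counts in mutant archegonia and 1.68%, 1.56% and 1.57% in mutant antheridia. The groups did not overlap, with means of 5.64% ± 0.780 in archegonia and 1.60% ± 0.0636 in antheridia (SD, n = 3; two-sided exact permutation p = 0.1, again the smallest possible). The difference, antheridia minus archegonia, was -4.03 percentage points, -2.09 without the 10 most abundant genes of the list and -7.28 with the list from the authors' deposited table. For comparison, the wild type libraries that chose the lists had 10.2% to 13.9% for the male list in antheridia and 6.47% to 9.70% for the female list in archegonia. For the female list all 3 mutant antheridium libraries stood within the wild type antheridium range of 1.36% to 1.80%. For the male list the library labelled mutant antheridia 1, at 9.45%, lay under the wild type antheridium range. Mutant antheridia 3, at 11.3%, lay within it and mutant antheridia 2, at 24.0%, above it. In bulk samples, more cells of a type and more RNA per cell cannot be told apart.

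**Figure D1:**
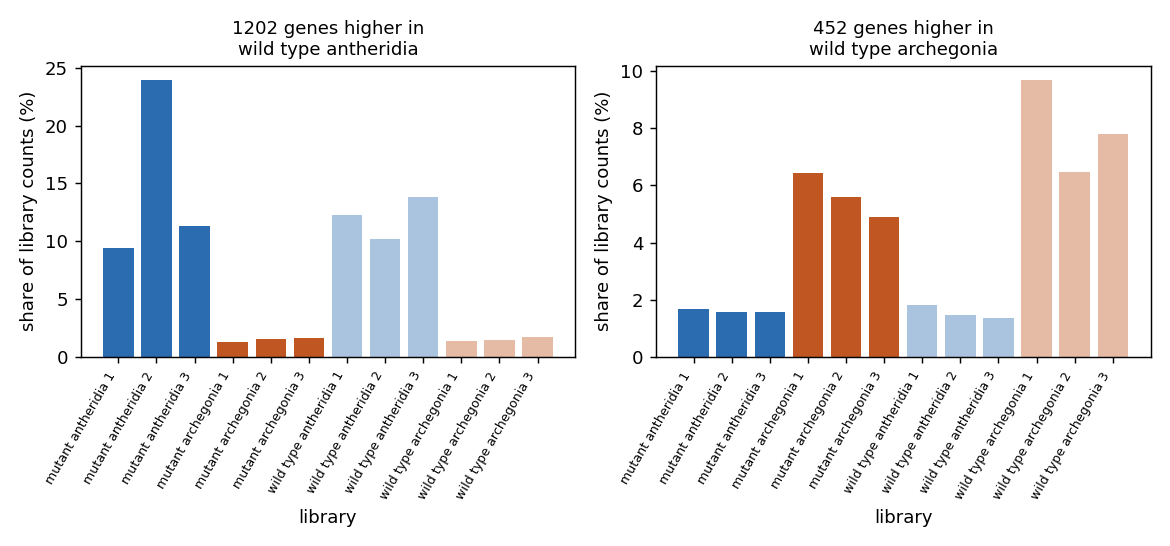
Share of the counts of each of 12 libraries (bars, in %) taken by the genes called higher in wild type antheridia (left, 1202 genes) and in wild type archegonia (right, 452 genes). Blue bars are antheridia and orange bars archegonia, and pale bars are the wild type libraries in which the lists were chosen. Mutant antheridia hold 9.45% to 24.0% of their counts in the male list, against 1.32% to 1.64% in mutant archegonia.

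The direction of the organ difference was shared gene by gene. Of the 1202 genes of the wild type antheridium list, 1164 (96.8%) had the higher mean CPM in mutant antheridia, where 44.8% of all 26838 genes with a count in the mutant did. For 817 of them (68.0%) every mutant antheridium library lay above every mutant archegonium library, against 8.82% of all genes with a count. Of the 452 genes of the archegonium list, 424 (93.8%) had the higher mean in mutant archegonia, against 55.2% of all genes, and 225 (49.8%) did not overlap between the organs in that direction, against 8.13%. Without the library labelled mutant antheridia 1 the higher mean lay in the same organ for 1112 genes of the male list and 416 of the female list. The non-overlapping genes then numbered 871 (72.5%) on the male list and 257 (56.9%) on the female list, where 12.1% and 15.6% of all genes did not overlap in these directions. The median log2 ratio of mean levels, antheridia over archegonia, was 4.26 in the mutant for the male list and 3.49 in wild type, where the list was chosen. For the female list it was -1.45 in the mutant and -1.94 in wild type.

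A few genes of the wild type lists stood the other way round in the mutant, with no overlap between the organs. They numbered 5 of 1202 on the male list and 1 of 452 on the female list, under the shares of all genes given above, and were chosen after their values were seen. On the male list they were Pp3c10_8530, Pp3c10_9740, Pp3c12_18540, Pp3c21_10640 and Pp3c4_19980. Pp3c21_10640 had 56.7, 15.98 and 82.5 CPM in mutant antheridia and 93.5, 107.5 and 201.4 CPM in mutant archegonia, while wild type antheridia had 392.7, 307.5 and 163.7 CPM and wild type archegonia 55.4, 117.3 and 73.5 CPM. Pp3c10_9740 had 23.8, 23.6 and 30.2 CPM in mutant antheridia and 70.7, 42.6 and 39.3 CPM in mutant archegonia, against 62.3, 99.2 and 134.1 CPM in wild type antheridia. Pp3c10_8530, Pp3c12_18540 and Pp3c4_19980 were under 10 CPM in each mutant library. On the female list Pp3c4_11810 had 57.9, 95.3 and 50.1 CPM in mutant antheridia and 23.7, 31.9 and 19.7 CPM in mutant archegonia. In the fit of the 6 mutant libraries none of these genes was called: 5 had edgeR adjusted p of 0.157 to 0.621, and Pp3c4_19980 was not tested because of its low counts. In a fit of all 12 libraries Pp3c4_11810 passed (edgeR adjusted p = 0.0186). Their edgeR adjusted p for the difference of the organ effect between genotypes was 0.811 to 0.961.

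Compared directly from the raw counts of the 6 mutant libraries, antheridia and archegonia differed in 575 of 21116 genes tested (2.72%). The test was edgeR's quasi-likelihood test, with genes called at a Benjamini-Hochberg adjusted p under 0.05. Of these, 539 (2.55% of the tested genes) were higher in antheridia and 36 (0.170%) were higher in archegonia, so that 93.7% of the called genes were on the male side. The unadjusted p was under 0.05 for 2870 of the tested genes. The median log2 fold change over all tested genes was -0.08. Without the library labelled mutant antheridia 1, 449 genes were called, 394 on the male and 55 on the female side, and 376 of them were among the 575. Without mutant antheridia 2 the count was 514, and without mutant archegonia 2 it was 563. Without mutant archegonia 3 it was 49, and without mutant archegonia 1 it was 1, with 276 of the 575 at an edgeR adjusted p under 0.1. Without mutant antheridia 3 it was 330, with 311 on the male and 19 on the female side. The authors' deposited table of the same comparison called 1749 of 23137 genes with an adjusted p (7.56%), 1449 of them antheridial and 300 archegonial. It held 537 of the 539, which is 99.6% of these and 37.1% of its own antheridial genes, and 35 of the 36, which is 97.2% of these and 11.7% of its own archegonial genes. Both rest on the same libraries, so this overlap is no independent support.

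**Figure D2:**
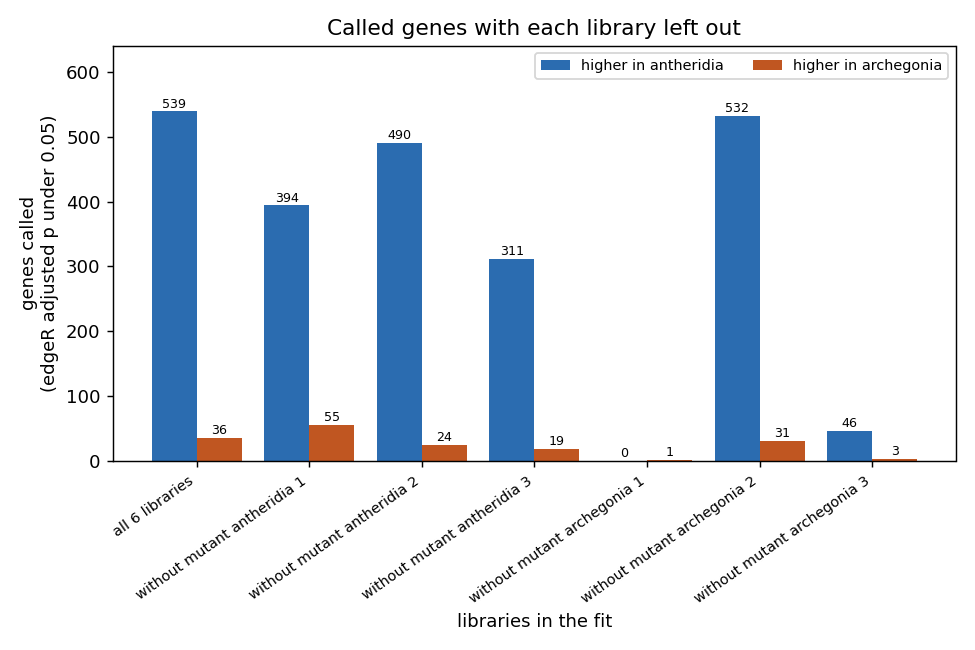
Number of genes called by edgeR (bars) with all 6 mutant libraries and with each library left out in turn, split into genes higher in antheridia (blue) and in archegonia (orange). The male side falls from 539 to 46 without mutant archegonia 3 and to 0 without mutant archegonia 1, and is 311 to 532 without any other library.

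The differences that passed were large. The 539 genes higher in antheridia had a median fitted log2 fold change of 6.34, with an interquartile range of 4.48 to 8.25, and 509 of them were over 8-fold and 294 over 64-fold. Their median level was 98.0 CPM in antheridia and 1.11 CPM in archegonia. In 268 of them the mean was at least 100 CPM in antheridia, and in 260 it was under 1 CPM in archegonia, but only 10 had no count in any of the 3 archegonium libraries. Counts of 0 were unevenly spread: 65, 22 and 253 of the 539 were at 0 in mutant archegonia 1, 2 and 3. Detection over all genes was uneven in the same order, with 24240, 24802 and 19803 genes with a count in these libraries. A count of 0 allows up to 3 counts, which is between 0.0922 and 0.139 CPM in these libraries. Together the 539 genes, which were chosen on these libraries, took 6.76%, 16.7% and 8.70% of the counts in mutant antheridia against 0.306%, 0.303% and 0.304% in mutant archegonia.

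The 36 genes higher in archegonia had a median fitted log2 fold change of 6.40 in that direction, with an interquartile range of 3.76 to 8.89, and 31 of them were over 8-fold. Their median level was 72.2 CPM in archegonia and 2.82 CPM in antheridia, and 15 of them averaged at least 100 CPM. They took 1.98%, 2.23% and 2.08% of the counts in mutant archegonia and 0.0337%, 0.0204% and 0.0243% in mutant antheridia. Only 1 of the 36 had no count in any antheridium library. The organs were less uneven in genes whose libraries did not overlap than in called genes. Among all tested genes, 1954 (9.25%) lay higher in every archegonium library than in every antheridium library, and 2295 (10.9%) lay higher in every antheridium library. The median log2 fold change of these genes was -1.41 on the female side and 3.32 on the male side. Of them, 1918 on the female side and 1756 on the male side were not called.

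**Figure D3:**
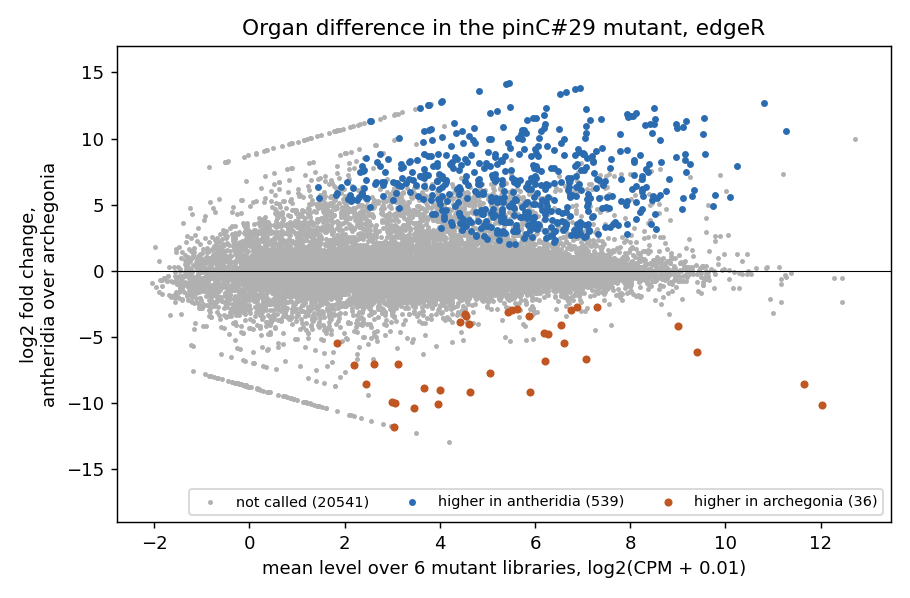
Fitted log2 fold change of antheridia over archegonia (vertical axis) against the mean level over the 6 mutant libraries as log2(CPM + 0.01) (horizontal axis), 1 point a gene. The 539 called genes higher in antheridia (blue) spread over folds from 1.99 to 14.2 on the log2 scale, and the 36 higher in archegonia (orange) from 2.76 to 11.8 in the other direction.

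Over genes with a mean of at least 10 CPM in 1 of the organs, most stood at similar levels in both. Of 15844 such genes in the mutant, 11459 (72.3%) had means within 2-fold, and these held 56.4% to 71.3% of the counts of mutant antheridia and 76.4% to 78.7% of those of mutant archegonia. A further 1195 genes (7.54%) were over 8-fold higher in antheridia and 144 (0.909%) over 8-fold higher in archegonia. The same classes held 77.2%, 4.28% and 0.403% of 15894 genes in wild type. These classes use means alone and no test, and whether they differ between genotypes was not tested. Of the 100 genes with the highest mean CPM, 43 were shared by mutant antheridia and mutant archegonia. Mutant and wild type antheridia shared 60 of their top 100, and mutant and wild type archegonia shared 78. The 100 most abundant genes of each library held 13.1%, 19.3% and 16.8% of the counts in mutant antheridia against 14.1%, 17.5% and 16.4% in mutant archegonia.

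Named genes were chosen by a fixed rule, as called genes with the largest fitted change among those without overlap between the organs and with a mean of 10 CPM or more where they were higher. Pp3c10_14830 had 16.03, 167.6 and 78.8 CPM in mutant antheridia 1, 2 and 3 and no count in the 3 mutant archegonium libraries. Its level was lowest in the library labelled mutant antheridia 1. The mean of 87.5 ± 76.2 CPM (SD, n = 3) was at least 2330-fold higher than 3 counts over the archegonium group, or at least 3281-fold without that library and 1262-fold without mutant antheridia 2 (edgeR adjusted p = 0.018). Pp3c3_33100 had 11.6, 176.8 and 62.1 CPM in mutant antheridia and likewise no count in mutant archegonia. At 83.5 ± 84.7 CPM it was at least 2224-fold higher in antheridia, or 981-fold without mutant antheridia 2 (edgeR adjusted p = 0.0256). In wild type the organs differed in the same direction, with 70.4 ± 39.0 against 0.0691 ± 0.0817 CPM for Pp3c10_14830 and 22.8 ± 10.1 against 0.0428 ± 0.0488 CPM for Pp3c3_33100.

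On the female side, Pp3c9_1800 had 14.8, 13.5 and 20.8 CPM in mutant archegonia and no count in mutant antheridia. The 3 archegonium values were close together, and the mean of 16.3 ± 3.89 CPM was at least 451-fold higher than 3 counts over the antheridium group (edgeR adjusted p = 0.0295). Wild type antheridia had 76, 22 and 0 counts of Pp3c9_1800, and wild type archegonia averaged 12.04 ± 1.58 CPM. Pp3c14_11350 had 12.1, 7.57 and 46.1 CPM in mutant archegonia and a single count over the 3 antheridium libraries. The mean archegonium level was 1815 times the level of 1 count over the summed depth of the antheridia, and counting error in that count alone allowed 326 to 71683 at 95% (edgeR adjusted p = 0.0369). Pp3c14_11350 was highest in mutant archegonia 3, without which the ratio was 814. Wild type antheridia had 108, 0 and 106 counts of Pp3c14_11350, against 17.9 ± 3.83 CPM in wild type archegonia. Counts of amplified reads do not come from separate molecules, so such ranges are too narrow. All 4 genes missed the threshold without mutant antheridia 3, mutant archegonia 1 or mutant archegonia 3, at edgeR adjusted p of 0.0527 to 0.146. Pp3c9_1800 also missed it without mutant archegonia 2 (edgeR adjusted p = 0.0691), and Pp3c14_11350 without the library labelled mutant antheridia 1 or without mutant antheridia 2 (edgeR adjusted p = 0.0697 and 0.0562). All 4 also missed it in limma-voom, at adjusted p of 0.0744 to 0.179. Pp3c14_11350 missed it in limma-voom with quality weights as well (adjusted p = 0.061). In the legacy edgeR fit Pp3c3_33100 and Pp3c9_1800 missed it (edgeR adjusted p = 0.0559 and 0.0549). Of 18 alternatives in all, the call was lost in 4 for Pp3c10_14830, 6 for Pp3c3_33100, 7 for Pp3c9_1800 and 8 for Pp3c14_11350.

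The most abundant transcripts differed between the organs in some cases and overlapped in another. Pp3c16_19400 had 10328, 16927 and 13367 CPM in mutant antheridia, a mean of 1.26% of the counts, and 5.52, 36.3 and 0 CPM in mutant archegonia. The groups were far apart, but the archegonia varied among themselves, and the log2 fold change of 9.95 ± 2.23 (SE) did not pass the threshold (edgeR adjusted p = 0.0624). Pp3c16_19400 passed at a similar fold without the low-count filter (edgeR adjusted p = 0.0296), in a fit of all 12 libraries (edgeR adjusted p = 0.0219), in limma-voom with quality weights (adjusted p = 0.0106) and in DESeq2 (adjusted p = 2.77e-09). Pp3c2_4510 had 2669, 6517 and 5584 CPM in mutant antheridia against 1.07, 8.73 and 0 CPM in mutant archegonia. Its log2 fold change was 10.59 ± 1.92 (SE), with an edgeR adjusted p of 0.03, and the call ended without any single library other than the library labelled mutant antheridia 1 and mutant archegonia 2, at 0.0534 to 0.155. It was also lost without robust estimation, in the legacy edgeR fit, in limma-voom and without mutant antheridia 2 and 3 and mutant archegonia 3 together, at adjusted p of 0.065 to 0.116. Both genes were highest, among the mutant archegonia, in mutant archegonia 2. Wild type archegonia 1, 2 and 3 had 14.2, 6.53 and 1524 CPM of Pp3c16_19400 and 6.77, 4.10 and 350 CPM of Pp3c2_4510. Pp3c20_16210 was the most abundant transcript of mutant archegonia, at 6860, 4459 and 16919 CPM, and had 4572, 546 and 267 CPM in mutant antheridia 1, 2 and 3. The library labelled mutant antheridia 1 reached the archegonium range for this gene, which was not called (log2 fold change -2.36 ± 1.32, SE; edgeR adjusted p = 0.545). Without that library the log2 fold change was -4.53, with an edgeR adjusted p of 0.149. Pp3c12_11710 followed with 5773, 9885 and 9316 CPM in mutant archegonia and 10.1, 5.09 and 6.17 CPM in mutant antheridia. It was less low in wild type antheridia, at 3143, 330 and 1697 CPM, against 30885, 20454 and 11704 CPM in wild type archegonia. In the mutant its log2 fold change was -10.17 ± 1.26 (SE), with an edgeR adjusted p of 0.00751. The call was lost at a similar fold without mutant archegonia 1 or 3 (edgeR adjusted p = 0.0586 and 0.0523), without robust estimation (0.108), and without mutant antheridia 2 and 3 and mutant archegonia 3 together (0.101). The authors' deposited table gives it a log2 fold change of -9.89.

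**Figure D4:**
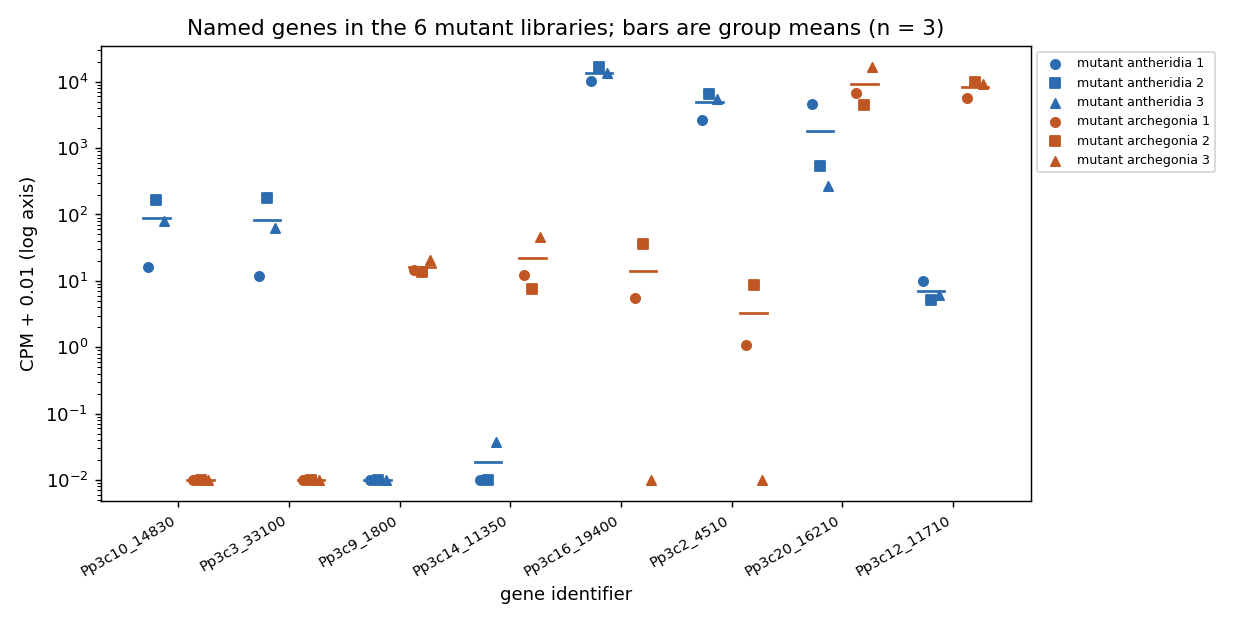
Level of the 4 genes with the largest change and the 4 genes most abundant in an organ, as CPM + 0.01 on a log axis, in each of the 6 mutant libraries (symbols for replicates, blue for antheridia, orange for archegonia) with the group means as bars (n = 3). In Pp3c20_16210 the library labelled mutant antheridia 1, at 4572 CPM, lies within the mutant archegonium range. In Pp3c12_11710 all mutant antheridia stay at or under 10.1 CPM.

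The genes called in the mutant were then looked up in the wild type libraries, which had no part in choosing them. All 539 genes higher in mutant antheridia had the higher mean in wild type antheridia, and all 36 genes higher in mutant archegonia had the higher mean in wild type archegonia. In wild type, 426 of the 539 (79.0%) and 23 of the 36 (63.9%) were also called by edgeR, against 5.55% and 2.09% of all genes tested in wild type in these directions, and 0 were called in the other direction. These are 35.4% of the 1202 and 5.09% of the 452 genes called in wild type. The 113 genes called higher in antheridia in the mutant only had a median wild type log2 ratio of 2.95, and in 90 of them the wild type libraries did not overlap either, as in 15.0% of the genes tested in wild type. For the 13 on the female side the median wild type log2 ratio was -2.56, with 8 not overlapping, against 17.1% of the tested genes. The log2 ratio of means over the 539 genes had a median of 6.28 in the mutant and 4.18 in wild type, and over the 36 genes -6.42 and -2.96. The genes were chosen on the mutant libraries, so the sizes of these ratios are a description and no comparison of the genotypes.

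**Figure D5:**
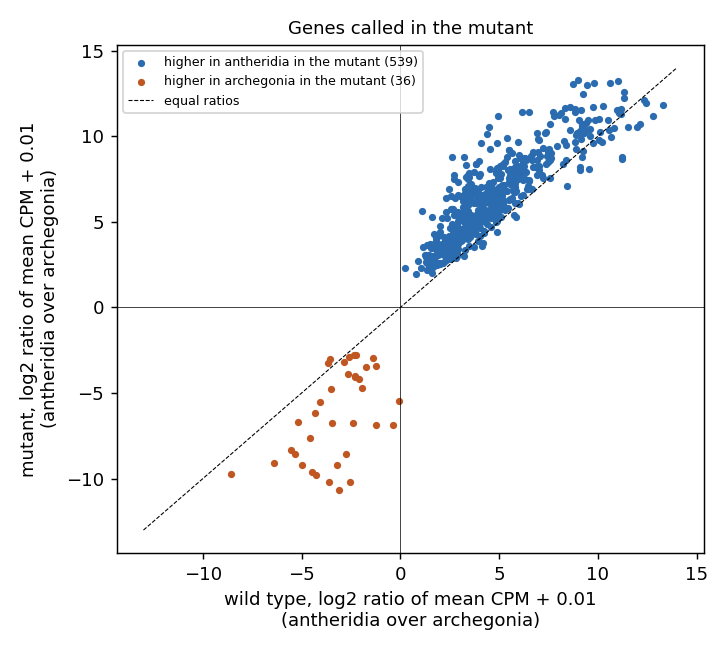
Log2 ratio of mean CPM + 0.01, antheridia over archegonia, in the mutant (vertical axis) against wild type (horizontal axis) for the 539 genes called higher in mutant antheridia (blue) and the 36 called higher in mutant archegonia (orange); the dashed line marks equal ratios. All points have the same sign in both genotypes, and 5 lie within 2-fold in wild type.

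Only 5 of the 575 genes were under 2-fold in wild type, and they were named after their values were seen. Pp3c27_4170 had 111.8, 190.8 and 125.0 CPM in mutant antheridia against 35.4, 16.9 and 34.1 CPM in mutant archegonia. The groups did not overlap, and its log2 fold change was 2.32 ± 0.48 (SE), with an edgeR adjusted p of 0.0469. In wild type it averaged 57.5 ± 10.6 CPM in antheridia and 49.4 ± 20.7 CPM in archegonia, which overlapped. Pp3c22_17560 and Pp3c4_1170 were also higher in mutant antheridia, at log2 fold changes of 2.76 and 1.99 (edgeR adjusted p = 0.0344 and 0.0418), against 0.94 and 0.81 in wild type. Pp3c21_8410 had 0.0436, 0.221 and 0.188 CPM in mutant antheridia against 7.56, 6.17 and 7.28 CPM in mutant archegonia. Its log2 fold change was -5.44 ± 1.03 (SE), with an edgeR adjusted p of 0.0182. In wild type the same gene stood at 7.44 ± 2.94 CPM in antheridia and 7.67 ± 1.40 CPM in archegonia. Pp3c10_3290 had 0.392, 0 and 0.0268 CPM in mutant antheridia against 6.35, 2.68 and 42.4 CPM in mutant archegonia (edgeR gave an adjusted p of 0.0458), while it had 7.99 ± 4.47 and 10.5 ± 3.38 CPM in the wild type organs. Without the library labelled mutant antheridia 1 all 5 missed the threshold, at edgeR adjusted p of 0.0644 to 0.134, while their log2 fold changes were 2.61 for Pp3c22_17560, 2.46 for Pp3c27_4170, 2.00 for Pp3c4_1170, -5.07 for Pp3c21_8410 and -9.67 for Pp3c10_3290. Leaving out any other single library also ended these calls, except for Pp3c10_3290 without mutant archegonia 2 (edgeR adjusted p = 0.0321), and so did limma-voom and the legacy edgeR fit. Pp3c27_4170 was also lost with upper-quartile scaling (edgeR adjusted p = 0.0564) and Pp3c4_1170 without the low-count filter (edgeR adjusted p = 0.0529). Limma-voom with quality weights lost Pp3c27_4170, Pp3c21_8410 and Pp3c10_3290 (adjusted p = 0.0631, 0.0854 and 0.299). Of 18 alternatives in all, 12 ended the call of Pp3c27_4170 and 10 that of each other gene.

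Whether the organ difference itself was unlike in mutant and wild type was tested as an interaction over all 12 libraries. In edgeR 0 of 22792 genes passed (0.00%), while 961 had an unadjusted p under 0.05. The smallest edgeR adjusted p was 0.611, and Pp3c21_8410 was among the genes that had it. Limma-voom also called 0 of the 22792 genes and the DESeq2 Wald test 48 of the 22792. Of these 48, 2 were among the 539 and 6 among the 36, a larger part of the 36 than of all genes. The 539 and the 36 were chosen on mutant libraries that also entered this test, so these counts are a description only. No organ difference was called particular to the mutant by the edgeR test. The interaction was not fitted without the library labelled mutant antheridia 1, so this result depends on the label of that library.

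Genes restricted to an organ in every library were few. The rule asked for at least 1 CPM in each of the 3 libraries of an organ and no count in the other organ. Of all 32926 genes, 39 were antheridial and 40 archegonial in the mutant. In wild type 22 and 32 of the 32926 genes met the same rule. The genotypes shared 6 antheridial genes, 15.4% of the mutant and 27.3% of the wild type set, and 7 archegonial genes, 17.5% and 21.9%. A single count in the other organ removes a gene from such a set. The mutant sets were not drawn without the library labelled mutant antheridia 1.

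The called genes were spread over the genome as far as identifiers show it, since the number after Pp3c names the chromosome. Genes higher in mutant antheridia occurred on each of 27 chromosomes, at 1.14% of tested genes on chromosome 21 to 4.32% on chromosome 27, against 2.55% of all. The 36 archegonial genes were at most 5 on any chromosome. Among the 539 genes, 90 (16.7%) had a called neighbour of the same direction among the tested genes next to it in identifier order, where 4.98% of all tested genes had such a neighbour. Reads of overlapping genes or near-identical neighbours cannot be told apart here, because the library method does not mark strand and the annotation was not used.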

How the data were processed

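RNA of 8 pooled organs per library was made into cDNA by Smart-seq2, a full-length method without strand marks or molecular identifiers, per the labels' protocols. The authors deposited whole-number read counts for 32926 genes; per the submitters' processing notes Trim Galore 0.6.6, cutadapt 2.10, HISAT2 2.1.0 and DESeq2 2.11.40.6 were used, while build, annotation and counter are not named in those notes or the labels. The authors' deposited tables of their own comparisons give a log2 fold change, a p-value and a further, adjusted p-value for each gene and have no header.

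Counts were tested in R 4.3.3 with edgeR 4.0.16 (TMM scaling, filterByExpr, robust non-legacy quasi-likelihood fit, no minimum fold) on the 6 mutant libraries only, and separately on the 6 wild type libraries, where lists were drawn. Of the genes, 6088 had no count in the mutant libraries. CPM are scaled within each genotype. Standard errors were obtained from the fitted log2 fold change and the F statistic. Log2 ratios of means add 0.01 CPM. Genes were named by rule: the first 2 in each direction by fitted change, the 2 most abundant in each organ, and the candidate. Limma 3.58.1 and DESeq2 1.42.0 gave alternative tests. The test was tried on simulated data. Replicate pairs differed well beyond sampling noise (chi-square per degree of freedom of at least 88.4). The lists and comparison were chosen with earlier results of these data known. Same-numbered libraries of both organs did not deviate together in every pair (correlations of 0.121, -0.149 and 0.0783), so numbers were not taken as pairs. Gene lists by product were not tested, because no identifier carried a description.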

Additional observations from a re-analysis of the deposited data

How the results depend on the processing

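The 575 genes called between the mutant organs were 538 to 706 with other scaling, other low-count filters or without robust estimation, and 535 to 575 of them were among the 575. Other tests moved the count. It was 1568 with the DESeq2 Wald test (1346 higher in antheridia, 222 in archegonia), 10 with limma-voom (8 and 2), 1167 with limma-voom and quality weights (1093 and 74), 175 with the legacy edgeR fit (159 and 16) and 1840 in a single fit of all 12 libraries (1536 and 304). With the replicate number as a block it was 223 (216 and 7), although the numbers were not shown to pair libraries. Among the named genes, Pp3c9_1800, Pp3c14_11350, Pp3c2_4510 and Pp3c12_11710 were not called with this block (edgeR adjusted p = 0.19, 0.145, 0.0823 and 0.0657), nor were the 5 genes under 2-fold in wild type. With single libraries left out the count of called genes ranged from 1 to 563, with 0 to 532 genes higher in antheridia and 1 to 55 higher in archegonia. Without mutant antheridia 2 and 3 and mutant archegonia 3 it was 942 (822 and 120), with the lone antheridium library assumed to vary like the archegonia. The male side held 80.0% to 96.9% of the calls in these alternatives, except without mutant archegonia 1, where the only call was on the female side. The cause was not tested. The directions of the named genes and the shares of the wild type lists did not reverse under any alternative run. With single libraries left out the share difference was 8.90 to 16.2 percentage points for the male list and -4.41 to -3.63 for the female list. Per library the 10 most abundant genes held 5.20% of the counts in mutant antheridia on average and 6.12% in archegonia, and with 1000 genes in place of 100 the shares were 43.5% and 40.4%. Chosen after seeing the data, the DESeq2 Wald test called 2838 genes in wild type, against 1654 in edgeR, and 48 in the interaction, against 0. Absence from an organ was not detectable under the limit of 3 counts.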
